A study of Mus musculus with 2 samples.

Results

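The 10 genes described here make up the growth factor and transcription factor circuit that sets and keeps the identity of alveolar macrophages (AMs): the GM-CSF receptor genes Csf2ra and Csf2rb with Csf2rb2, the related beta chain of the IL-3 receptor, the transforming growth factor genes Tgfb1, Tgfbr1 and Tgfbr2, and the transcription factor genes Pparg, Bhlhe40, Bhlhe41 and Cebpb. They were taken by name and not by a threshold on their values, although earlier results of these data were known when they were listed, and are 10 of the 32285 genes listed. All 10 were matched to an Ensembl identifier and passed the filter on low counts in every comparison of groups of at least 50 barcodes. Levels were read in 13851 barcodes with at least 500 detected genes and at most 10% mitochondrial UMIs (unique molecular identifiers, which count captured mRNA molecules).

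AMs were isolated by FACS from lungs of female C57BL/6 mice and sequenced with droplet 3′ chemistry as 2 libraries, 1 per condition. The control library came from vehicle-control mice and the tumor library from mice carrying an orthotopic lung tumor of Lewis lung carcinoma (LLC), a mouse lung cancer line injected into the left lung. Both are labelled as postnatal week 10, the mice of the 2 conditions were bred separately, and the number of mice behind each library, and the day of sampling, are not given in the sources used here. The methods also assign barcodes to samples by hashtag counts, which were not used here, so each library was taken as 1 condition from its label alone. The study describes lung AMs as CD45+ autofluorescent cells positive for Siglec-F and F4/80, and the gate of the single-cell sort itself is not spelled out. In tumor-bearing lungs the CD45+ autofluorescent cells also include CD11b+ macrophages without Siglec-F, which a Siglec-F gate would remove. With 1 library per condition, condition, breeding and library preparation cannot be told apart, no test across samples was possible, and every interval below covers counting error only.

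GM-CSF, made in the lung mainly by epithelial cells, acts through a receptor of a ligand-binding alpha chain and a signaling beta chain, and is known to induce PPARγ in fetal monocytes as they become AMs. AMs also make their own TGF-β1, which binds the type II receptor, recruits the type I receptor and is known to maintain the same program. PPARγ, a lipid-activated nuclear receptor, drives the lipid-handling genes that let AMs clear surfactant, while BHLHE40 and BHLHE41 are repressors known for keeping AM self-renewal and identity, and C/EBPβ is a leucine zipper factor that AMs need to form.

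The stretches before 4 start sites are shown, those of the 3 genes in which a motif marked below was found and 1 of Pparg, which had the largest difference between states, so the choice followed the search. Of the 10 genes, 8 had an entry in the RefSeq promoter table (GRCm38.p6; Csf2rb and Bhlhe40 had none), of which the 250 bases before each start were used. Each window was searched on both strands for an E-box (CACGTG), a C/EBP site (TTNCGCAA), a STAT site (TTCNNNGAA), a DR1 element of the kind nuclear receptors bind (AGGTCA repeated after 1 base) and a SMAD palindrome (GTCTAGAC). Capitals mark these matches, of which no window had more than 1, and the windows of Csf2ra, Cebpb, Tgfb1, Tgfbr1 and Pparg had none. A GC box (GGGCGG) was also searched on both strands and is not marked, and it was found before a start of 6 of the 8 genes and in 32.7% of all windows. The Csf2rb2 window is chr15:78305722-78305971 on the minus strand, with a STAT site beginning 15 bases before the start. The Tgfbr2 window is chr9:116175364-116175613 on the minus strand, with a C/EBP site 205 bases before the start. For Bhlhe41, the 112 bases outside annotated exons, chr6:145865559-145865670 on the minus strand, hold an E-box 153 bases before the RefSeq start. For Pparg, chr6:115421816-115422065 on the plus strand precedes the most downstream of the 3 starts in the table and lies outside exons. The windows of its upstream starts overlap exons in part and are not shown, and which start these cells use was not examined. All are given 5′ to 3′.
Csf2rb2: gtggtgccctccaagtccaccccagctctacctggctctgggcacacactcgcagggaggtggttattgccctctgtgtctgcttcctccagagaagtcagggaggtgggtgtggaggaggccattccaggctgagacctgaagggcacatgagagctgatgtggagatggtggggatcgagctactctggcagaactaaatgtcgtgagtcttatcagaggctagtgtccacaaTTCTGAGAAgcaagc
Tgfbr2: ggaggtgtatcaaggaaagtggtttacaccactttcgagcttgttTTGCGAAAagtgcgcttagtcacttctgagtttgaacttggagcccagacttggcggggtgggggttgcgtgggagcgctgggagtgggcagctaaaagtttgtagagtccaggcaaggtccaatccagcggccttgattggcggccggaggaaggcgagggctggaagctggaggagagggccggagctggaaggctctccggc
Bhlhe41: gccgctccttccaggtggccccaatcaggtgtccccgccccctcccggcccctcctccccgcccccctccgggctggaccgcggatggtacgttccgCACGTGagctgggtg
Pparg: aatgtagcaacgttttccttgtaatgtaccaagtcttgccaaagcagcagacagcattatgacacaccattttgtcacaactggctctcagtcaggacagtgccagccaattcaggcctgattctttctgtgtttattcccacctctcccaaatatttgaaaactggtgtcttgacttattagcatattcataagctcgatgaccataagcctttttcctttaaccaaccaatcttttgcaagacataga
Of all 32851 windows, 7.02% hold the STAT letters, 0.670% the C/EBP letters and 6.02% the E-box letters, and 0.0335% hold the DR1 and 0.167% the SMAD letters, which were in no window of these genes. These matches are descriptions of sequence and were not tested for binding.

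The control library held 8485 barcodes, of which 6185 were kept at a median of 10370 UMIs, and the tumor library 9175, of which 7666 were kept at a median of 8264 UMIs. Of the barcode sequences, 25 occurred in both libraries, 17 of them among those kept. All 12 AM markers were above 20 UMIs per 1000000 (CPM) in both libraries and summed to 20534 CPM in control and 17482 CPM in tumor, with Chil3, a chitinase-like protein, the largest part of the sum at 11657 and 10519 CPM. Of the 12, 10 were lower in tumor, among them Marco, a scavenger receptor, at 585 and 207 CPM, and 2 were higher, Itgax at 362 and 384 CPM and Fabp4 at 349 and 372 CPM. The 8 monocyte markers summed to 17.8 CPM in control and 111 CPM in tumor, and their part in the differences below was not tested beyond the values given for barcodes without them.

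Across whole libraries, none of the 10 genes differed by 1.5-fold between tumor and control. The count of 0 of 10 stands beside 23.3% of the 13500 genes with at least 10 expected UMIs in each library that were past 1.5-fold in either direction. That share, like those of all genes below, includes genes of far fewer UMIs than the 10, whose ratios carry more counting error. The lowest of the 10, Csf2rb2, had 4208 UMIs in control and 4729 in tumor. No share over genes of like level was computed, so these shares do not rank the 10 genes as stable. As log2 of tumor over control, the 10 genes had a median of 0.08 and all genes tested one of -0.07. Counting intervals lay above 0 for 6 genes and below 0 for 3, so nearly every gene was measured precisely enough to resolve a difference smaller than 1.5-fold.

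Among the 3 cytokine receptor genes, the shared beta chain had the largest ratio. Csf2rb (ENSMUSG00000071713, chr15:78325752-78353847, plus strand, GRCm38), the beta chain shared by the GM-CSF, IL-3 and IL-5 receptors, was at 418 CPM (95% interval 413 to 423) in control and at 538 CPM (533 to 543) in tumor. This is 1.29-fold higher in tumor, a log2 ratio of 0.36 (0.34 to 0.39). Csf2ra (ENSMUSG00000059326, chr19:61223957-61228429, minus strand), the ligand-binding chain, was at 267 CPM (263 to 271) in control and 254 CPM (250 to 257) in tumor, a log2 ratio of -0.07 (-0.10 to -0.04). The chain that sets specificity for GM-CSF and the chain that signals for 3 cytokines thus lay on opposite sides of equality, the former near 0 once ratios were centred on the median of all genes. Csf2rb2 (ENSMUSG00000071714, chr15:78282507-78305721, minus strand), the mouse beta chain used by IL-3 alone, was at 64.9 CPM in control and 68.7 CPM in tumor, a log2 ratio of 0.08 (0.02 to 0.14). Csf2rb and Csf2rb2 are similar neighbours, and 8.28% of the 91-base windows of the Csf2rb transcript also occur in that of Csf2rb2, but none of the 510 windows in its last 600 bases, the part that 3′ reads mostly cover.

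Over all barcodes the TGF-β genes differed little between libraries. Tgfb1 (ENSMUSG00000002603, chr7:25687002-25705077, plus strand), the ligand, was at 316 CPM (312 to 320) in control and 336 CPM (332 to 340) in tumor, a log2 ratio of 0.09 (0.06 to 0.12). Tgfbr1 (ENSMUSG00000007613, chr4:47353222-47414931, plus strand), the type I receptor kinase, was at 186 CPM (183 to 189) and 171 CPM (168 to 174), a log2 ratio of -0.12 (-0.16 to -0.08). Tgfbr2 (ENSMUSG00000032440, chr9:116084293-116175360, minus strand), the type II receptor, was at 183 CPM (180 to 187) in control and 179 CPM (176 to 182) in tumor, and its interval of the log2 ratio, -0.07 to 0.00, reached equality. Over all barcodes the ligand and its receptors were thus within 1.09-fold of their control levels, which did not hold in shallow barcodes.

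The transcription factors spread further. Cebpb (ENSMUSG00000056501, chr2:167688915-167690418, plus strand), a gene of 1 exon, was at 2013 CPM (2002 to 2024) in control and 2781 CPM (2769 to 2794) in tumor, a 1.38-fold difference and the largest of the 10, with a log2 ratio of 0.47 (0.46 to 0.48). Bhlhe41 (ENSMUSG00000030256, chr6:145858243-145865558, minus strand) was at 122 CPM (120 to 125) and 144 CPM (141 to 147), a log2 ratio of 0.24 (0.20 to 0.28). Its paralog Bhlhe40 (ENSMUSG00000030103, chr6:108660629-108666925, plus strand) was at 363 CPM (359 to 368) and 385 CPM (380 to 389), a log2 ratio of 0.08 (0.06 to 0.11). Pparg (ENSMUSG00000000440, chr6:115360951-115490399, plus strand) was at 127 CPM (125 to 130) in control and 119 CPM (116 to 121) in tumor, a log2 ratio of -0.10 (-0.15 to -0.06). Relative to the median of all genes, Pparg was at -0.03. Genes annotated on the opposite strand overlap Pparg (Gm44079), Bhlhe40 (0610040F04Rik), Bhlhe41 (Gm43909) and Cebpb (Tmem189).

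Depth differed between the libraries, so the ratios were also taken within windows of UMIs per barcode. Csf2rb had log2 ratios of 0.07 (-0.05 to 0.19) below 4000 UMIs, 0.38 from 4000 to 8000, 0.39 from 8000 to 12000 and 0.31 from 12000 upward. Cebpb was higher in tumor throughout, with log2 ratios of 0.70, 0.59, 0.42 and 0.31 in the same order, so that it was past 1.5-fold in the shallower windows and not in the deeper ones. Pparg was at 0.18 (-0.10 to 0.46) and 0.12 (0.01 to 0.24) in the shallower windows and at -0.08 (-0.15 to -0.01) and -0.28 (-0.35 to -0.21) in the deeper ones, so its direction between libraries turned with depth. Below 4000 UMIs, Tgfbr1 was at -0.52 (-0.71 to -0.33), Csf2ra at -0.43 (-0.60 to -0.26) and Tgfb1 at 0.35 (0.19 to 0.52), each farther from 0 than in the deeper windows, where Tgfbr1 ranged from -0.22 to -0.06, Csf2ra from -0.08 to -0.03 and Tgfb1 from 0.01 to 0.17. Tgfbr2 also turned, at -0.18 (-0.41 to 0.06), 0.07, 0.07 and -0.17 (-0.22 to -0.11) from shallow to deep. The windows held 634 to 2257 control barcodes and 816 to 2806 tumor barcodes. In both libraries Bhlhe40 had a lower share of UMIs in the deepest tertile of barcodes than in the shallowest. Its log2 ratio was -0.41 in control and -0.48 in tumor. So did Cebpb (-0.16 in control and -0.46 in tumor), Tgfbr1 (-0.25 and -0.27), Csf2rb (-0.16 and -0.20) and Tgfb1 (-0.07 and -0.22). None of the other genes had intervals below 0 in both libraries. Pparg had one in tumor, at -0.16 (-0.24 to -0.07), and was at 0.05 (-0.04 to 0.14) in control.

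To see how the circuit varied among AMs, barcodes were assigned to 4 states by genes that are not among the 10. Apoe and S100a6 barcodes, defined by at least 3 UMIs per 10000 of each of these lipid transport and calcium-binding genes, were 23 of 6185 (0.372%, exact binomial interval 0.236 to 0.557) in control and 969 of 7666 (12.6%, 11.9 to 13.4) in tumor. MHC class II barcodes, with antigen presentation genes H2-Aa, H2-Ab1 and H2-Eb1, were 692 (11.2%) and 603 (7.87%). Mitotic barcodes were 311 (5.03%) and 179 (2.33%), and interferon barcodes, with genes such as Isg15 and Ifit1, were 15 (0.243%) and 239 (3.12%). Barcodes that met none of the rules numbered 5184 in control and 5932 in tumor, and 40 and 239 met more than 1. In tumor the states were deeper than no-state barcodes, which had a median of 7862 UMIs. Medians were 10069 UMIs in Apoe and S100a6, 9781 in MHC class II, 11701 in mitotic and 12342 in interferon barcodes. The part of depth in the differences between states was not tested beyond the settings with thinning. Groups of under 50 barcodes, which are the Apoe and S100a6 and the interferon barcodes of control, are given by their levels alone.

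**Figure D1:**
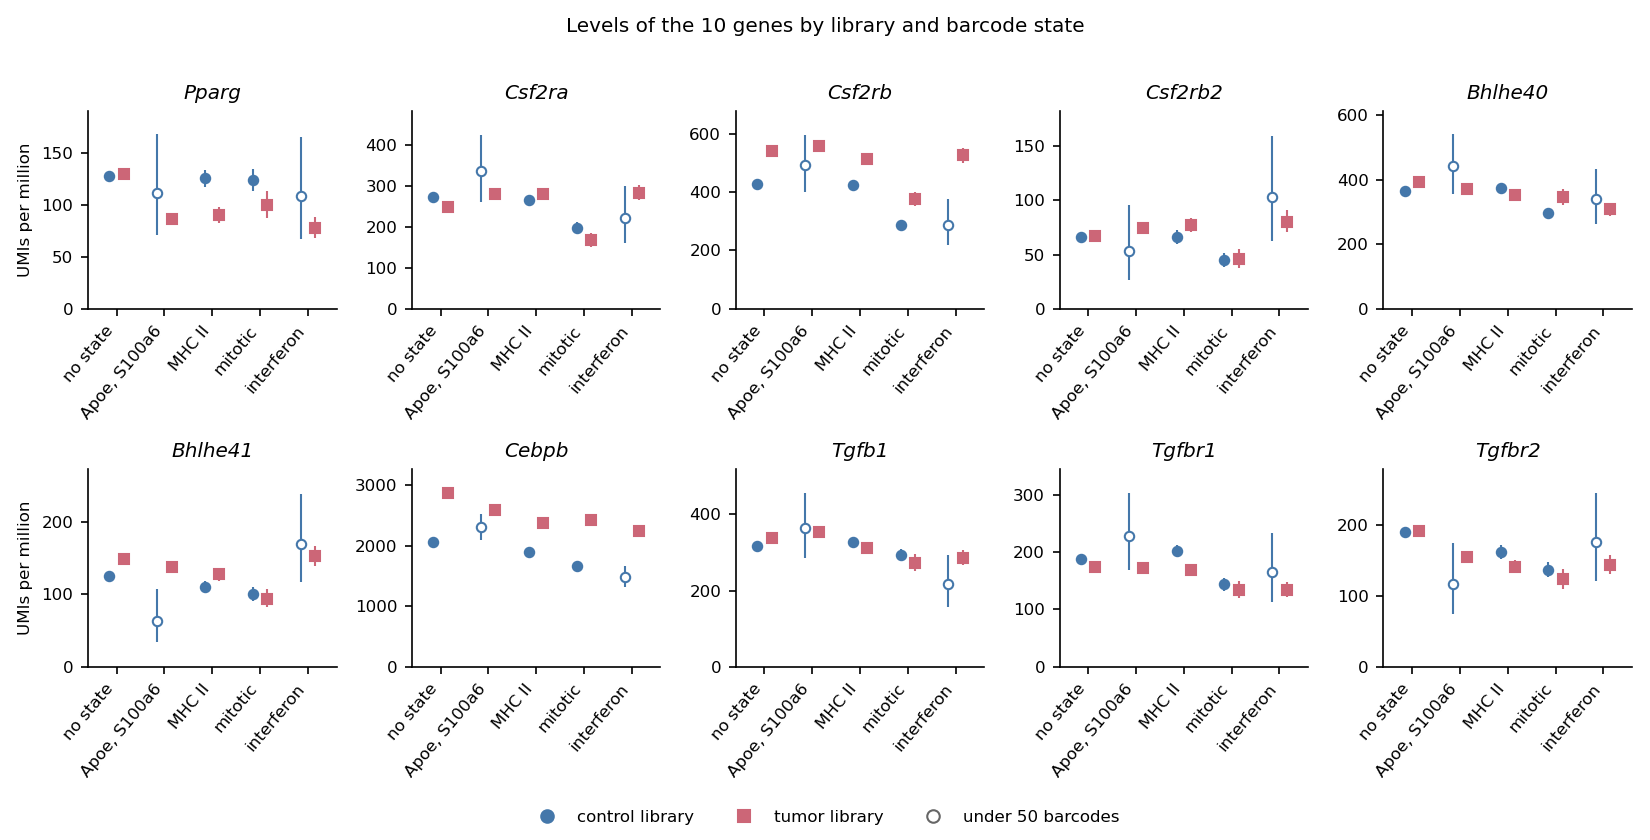
Level of each of the 10 genes in CPM (vertical axis, from 0) in barcodes of no state and of each state (horizontal axis) in the control (circles) and tumor (squares) libraries. Bars are exact Poisson 95% intervals, and open symbols are groups of under 50 barcodes. Pparg stood near 130 CPM in no-state barcodes of both libraries and lower in every tumor state, while Cebpb and Csf2rb were higher in tumor in every group of at least 50 barcodes.

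Pparg was lower in each of the 4 states than in no-state barcodes of the tumor library. It was at 130 CPM (127 to 133) in no-state barcodes, 99.4 CPM (86.9 to 113) in mitotic, 89.9 CPM (82.8 to 97.5) in MHC class II, 85.9 CPM (80.4 to 91.6) in Apoe and S100a6 and 77.5 CPM (67.9 to 88.1) in interferon barcodes. The intervals of the 4 states overlap one another, while the no-state level lies above all of them. The control library showed no such spread, with 128 CPM (125 to 131) in no-state, 125 CPM (117 to 134) in MHC class II and 124 CPM (113 to 134) in mitotic barcodes. Its small groups gave 112 CPM (70.9 to 168) in 23 Apoe and S100a6 barcodes and 108 CPM (66.9 to 165) in 15 interferon barcodes, intervals that hold both the no-state level and the tumor levels. Outside the states, the difference between tumor and control in Pparg was within counting error, with a log2 ratio of 0.02 (-0.03 to 0.07).

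In Apoe and S100a6 barcodes of tumor, Pparg had a log2 ratio of -0.60 (-0.70 to -0.50) over no-state barcodes, 1.51-fold lower and just past the 1.5-fold limit. It was the 1 gene of 10 past that limit, beside 16.6% of the 10868 genes tested. The median of all genes in this comparison was -0.14, and Pparg relative to that median was -0.46. Tgfbr2 was next, at 154 CPM (147 to 162) against 191 CPM (187 to 194), a log2 ratio of -0.30 (-0.38 to -0.23). The 3 receptor chains had ratios above 0, with Csf2ra at 280 CPM against 248 CPM (0.18, 0.12 to 0.24), Csf2rb at 558 against 541 CPM (0.04, 0.00 to 0.08) and Csf2rb2 at 74.5 against 67.2 CPM (0.15, 0.03 to 0.26). Tgfb1 (0.06), Tgfbr1 (-0.02), Bhlhe40 (-0.09), Bhlhe41 (-0.11) and Cebpb (-0.15) lay within 1.11-fold of no-state barcodes. In these barcodes the AM markers summed to 13233 CPM against 18697 CPM in no-state barcodes, mostly Chil3 at 7504 against 11310 CPM. Marco was at 19.6 against 265 CPM and Siglecf at 58.4 against 116 CPM. Itgax (450 against 378 CPM) and Adgre1 (123 against 115 CPM) were higher, and the other AM markers lower. The monocyte markers summed to 330 against 56.8 CPM, with C1qb at 80.4 CPM, Ccr2 at 13.8 CPM and Itgam at 50.2 against 7.27 CPM. With barcodes carrying markers of other cell types left out, Pparg was at -0.55. It was no longer past the limit under 7 of 11 other settings, and over all 11 it ranged from -0.62 to -0.46. The control barcodes of this state were partly of another kind, holding S100a8 at 1488 CPM and S100a9 at 1561 CPM, both neutrophil genes, where tumor barcodes of the state had 168 CPM and 0 UMIs.

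Pparg and Tgfbr2 were also lower when barcodes were graded by their summed Apoe and S100a6 UMIs instead of being cut into a state. From the lowest bin, under 1 per 10000 UMIs, to the highest, 30 and over, Pparg in tumor was at 143, 123, 103, 99.3 and 71.9 CPM, lower at each step and 1.99-fold lower at the end, a log2 ratio of -0.99 (-1.14 to -0.85). Tgfbr2 also declined at each step, from 198 through 186, 170 and 158 to 136 CPM, a log2 ratio of -0.54 (-0.65 to -0.44). For Tgfbr2 that ratio was -0.33 (-0.46 to -0.20) with barcodes holding markers of other cell types left out and -0.34 (-0.51 to -0.16) with thinning to 3800 UMIs. These were the 2 genes of 10 in tumor with such an order. Csf2ra went the other way, from 238 to 286 CPM (0.26, 0.19 to 0.34), as did Csf2rb2 (0.16, 0.01 to 0.31). Csf2rb was at 576 CPM in the bin from 15 to 30 but at 478 CPM in the highest against 517 CPM in the lowest. That gave a ratio of -0.11 (-0.17 to -0.05), the opposite sign to that of the state. The sign of Csf2rb depended on the setting. Csf2rb was at 0.07 (0.001 to 0.14) without barcodes holding markers of other cell types and at -0.003 (-0.10 to 0.09) with thinning. Bhlhe40 (-0.28, -0.35 to -0.21) and Bhlhe41 (-0.24, -0.35 to -0.13) were lower in the highest bin. Cebpb was at 2795, 2919, 2870, 2756 and 2250 CPM, lowest in the highest bin (-0.31, -0.34 to -0.29). Leaving out barcodes with markers of other cell types gave -0.16 (-0.24 to -0.07) for Bhlhe40 and -0.16 (-0.19 to -0.12) for Cebpb. The same setting gave 0.32 (0.14 to 0.50) for Csf2rb2, and left Csf2ra at 0.26 and Bhlhe41 at -0.22. Thinning gave 0.23 (-0.03 to 0.48) for Csf2rb2, an interval that holds 0. Tgfb1 and Tgfbr1 had intervals that reached equality, at 0.06 (-0.01 to 0.13) and 0.00 (-0.10 to 0.10). The Tgfb1 interval lay above 0 without barcodes holding markers of other cell types (0.15, 0.06 to 0.23). It also did so with barcodes of the other 3 states left out (0.13, 0.05 to 0.21). The bins held 3254, 1392, 1571, 953 and 496 barcodes, with median depths from 7731 to 11196 UMIs. With barcodes holding markers of other cell types left out, the Pparg ratio of the highest over the lowest bin was -0.74 (-0.92 to -0.57), and with every barcode thinned to 3800 UMIs it was -0.85 (-1.10 to -0.61). Among control barcodes the highest bin of at least 50, from 15 to 30 per 10000, gave Pparg 96.5 CPM against 129 CPM in the lowest, a log2 ratio of -0.42 (-0.86 to -0.01).

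**Figure D2:**
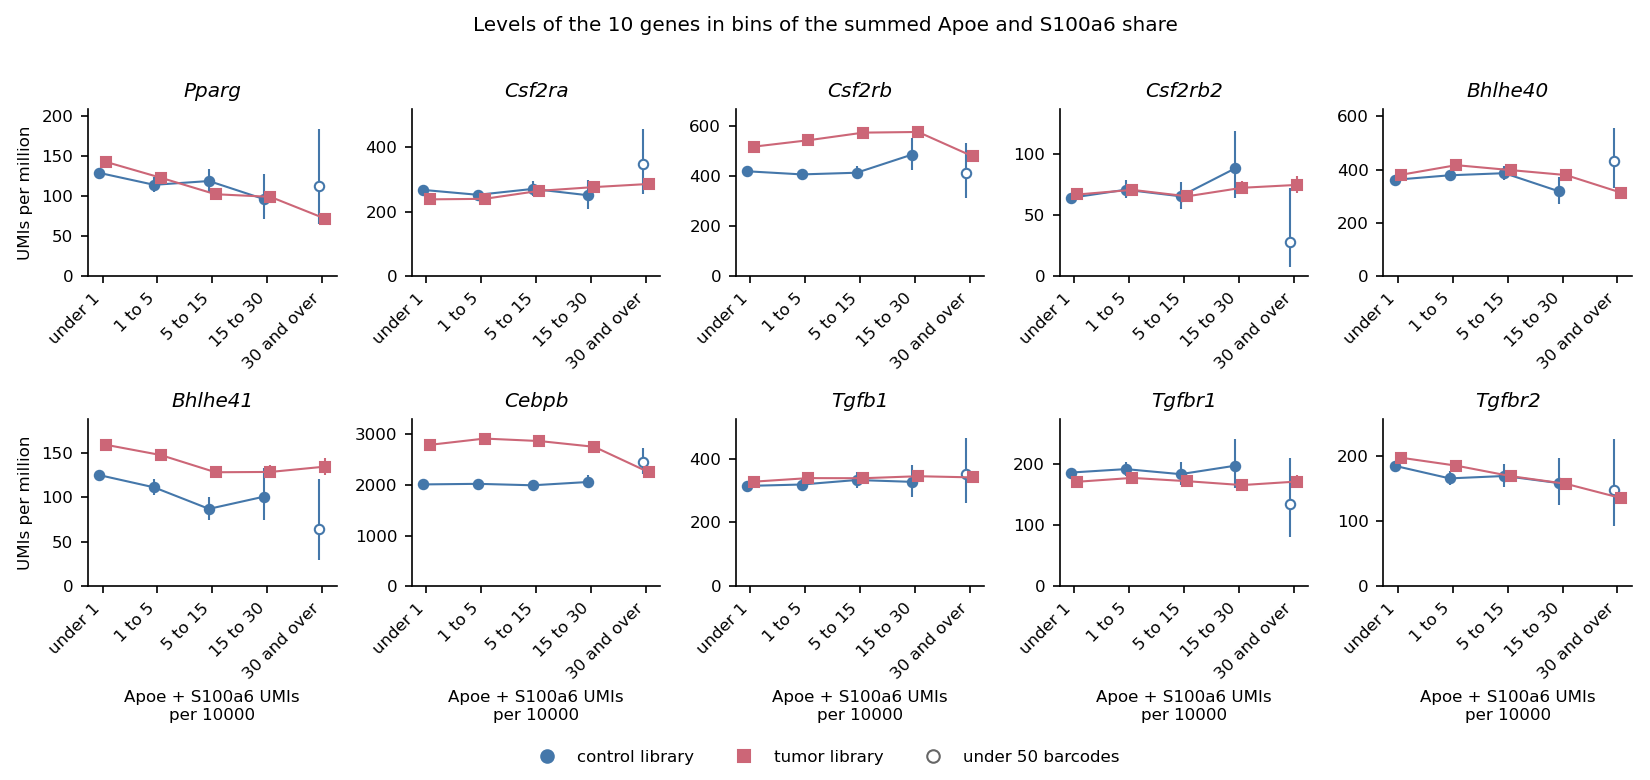
Level of each gene in CPM (vertical axis, from 0) in bins of the summed Apoe and S100a6 UMIs per 10000 UMIs of a barcode (horizontal axis), for the control (circles) and tumor (squares) libraries. Bars are exact Poisson 95% intervals and open symbols are bins of under 50 barcodes. Pparg and Tgfbr2 descended at every step in tumor, from 143 to 71.9 CPM and from 198 to 136 CPM, while Tgfb1 and Tgfbr1 kept to 328 to 345 CPM and 165 to 177 CPM.

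MHC class II barcodes carried a lower Pparg in tumor and not in control. The log2 ratio over no-state barcodes was -0.53 (-0.66 to -0.41) in tumor and -0.03 (-0.13 to 0.07) in control, and MHC class II barcodes of tumor over those of control gave -0.48 (-0.63 to -0.33). The difference between libraries could not be tested across mice. Tgfbr2 was lower in this state in both libraries, at -0.44 (-0.54 to -0.34) in tumor and -0.23 (-0.32 to -0.15) in control. In tumor Csf2ra (0.18) and Csf2rb2 (0.20) were higher and Cebpb (-0.27) and Bhlhe41 (-0.22) lower, while in control 6 of the 10 intervals held equality. No gene of the 10 was past 1.5-fold in either library, beside 12.2% of 10379 genes tested in tumor and 5.05% of 10503 in control, made up of 3.19% higher and 1.86% lower. The 2 libraries' MHC class II barcodes differed in other markers, with monocyte markers at 330 CPM in tumor and 30.9 CPM in control, B cell markers at 17.1 and 57.1 CPM, epithelial markers at 11.6 and 143 CPM and endothelial markers at 61.9 and 24.5 CPM. Of the 5 epithelial markers, 1 was above 20 CPM in control and 0 in tumor. Of the 4 endothelial markers, 1 was above 20 CPM in each library. Over all control barcodes Epcam made up 53.7 of 71.4 CPM of epithelial markers, with Krt8 and Krt18 at 0.154 CPM each. Vwf made up 26.8 of 32.1 CPM of endothelial markers there. With barcodes carrying markers of other cell types left out the tumor ratio of Pparg was -0.39 (-0.53 to -0.26).

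In mitotic barcodes all 10 ratios over no-state barcodes were below 0 in both libraries, with intervals below 0 for 10 genes in tumor and for 9 in control, where that of Pparg held 0. The receptor chains were lower in each library. Csf2rb was at 285 CPM (270 to 301) against 427 CPM in control (-0.58) and at 376 CPM (351 to 402) against 541 CPM in tumor (-0.53). Csf2rb2 was at 44.8 against 66.2 CPM (-0.56) and 45.5 against 67.2 CPM (-0.56), and Csf2ra at 197 against 272 CPM (-0.46) and 168 against 248 CPM (-0.56). All 3 receptor chains were thus lower in mitotic barcodes of either library, by log2 ratios of -0.58 to -0.46. Bhlhe41, at 94.1 against 149 CPM (-0.66, -0.86 to -0.46), and Tgfbr2, at 123 against 191 CPM (-0.63, -0.81 to -0.46), were past 1.5-fold in tumor. With markers of other cell types left out, with centring or with thinning, 4 genes of tumor were past that limit. In control, Csf2rb and Csf2rb2 were past it with centring, with thinning or with the state thresholds doubled. The control ratios of Bhlhe41 and Tgfbr2 were -0.33 (-0.47 to -0.19) and -0.47 (-0.59 to -0.35). With thinning, Bhlhe41 was at -0.13 (-0.41 to 0.13) in control, an interval that holds 0, and at -1.15 (-1.66 to -0.67) in tumor. Without thinning, Pparg had the ratio nearest 0 in control, at -0.05 (-0.18 to 0.07), and was at -0.39 (-0.58 to -0.20) in tumor. In tumor 2 of 10 genes, and in control 0 of 10, were past 1.5-fold, beside 22.8% of 9047 genes in tumor and 22.8% of 10028 genes in control. The median of all genes tested was 0.03 in tumor and 0.08 in control, against -0.46 and -0.35 for the 10 genes. Mitotic barcodes were deeper, at median depths of 14402 UMIs in control and 11701 UMIs in tumor against 10261 and 7862 UMIs in no-state barcodes.

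Interferon barcodes of tumor had the lowest Pparg level of the 4 states, with an interval that overlaps those of the others, 1.68-fold below no-state barcodes (-0.75, -0.94 to -0.56), the 1 gene of 10 past 1.5-fold, beside 18.6% of 9375 genes tested. The median of all genes was -0.16 here, and relative to it Pparg was at -0.58, short of the limit. Tgfbr2 (-0.41), Tgfbr1 (-0.38), Cebpb (-0.36), Bhlhe40 (-0.36) and Tgfb1 (-0.24) were lower too, with intervals below 0. Csf2rb2 (0.25, 0.06 to 0.44) and Csf2ra (0.19, 0.09 to 0.29) were higher, as they were in the Apoe and S100a6 and the MHC class II barcodes. Csf2rb (-0.04) and Bhlhe41 (0.04) had intervals that held 0. Of these 239 interferon barcodes, 141 met no other rule, and in those Pparg was at -0.41 (-0.64 to -0.18) and no longer past 1.5-fold. Interferon barcodes had AM markers at 15224 against 18697 CPM in no-state barcodes, monocyte markers at 200.7 against 56.8 CPM and endothelial markers at 59.8 against 24.8 CPM. Of the 4 endothelial markers, 1 was above 20 CPM in either group. With barcodes carrying markers of other cell types left out Pparg was at -0.66.

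**Figure D3:**
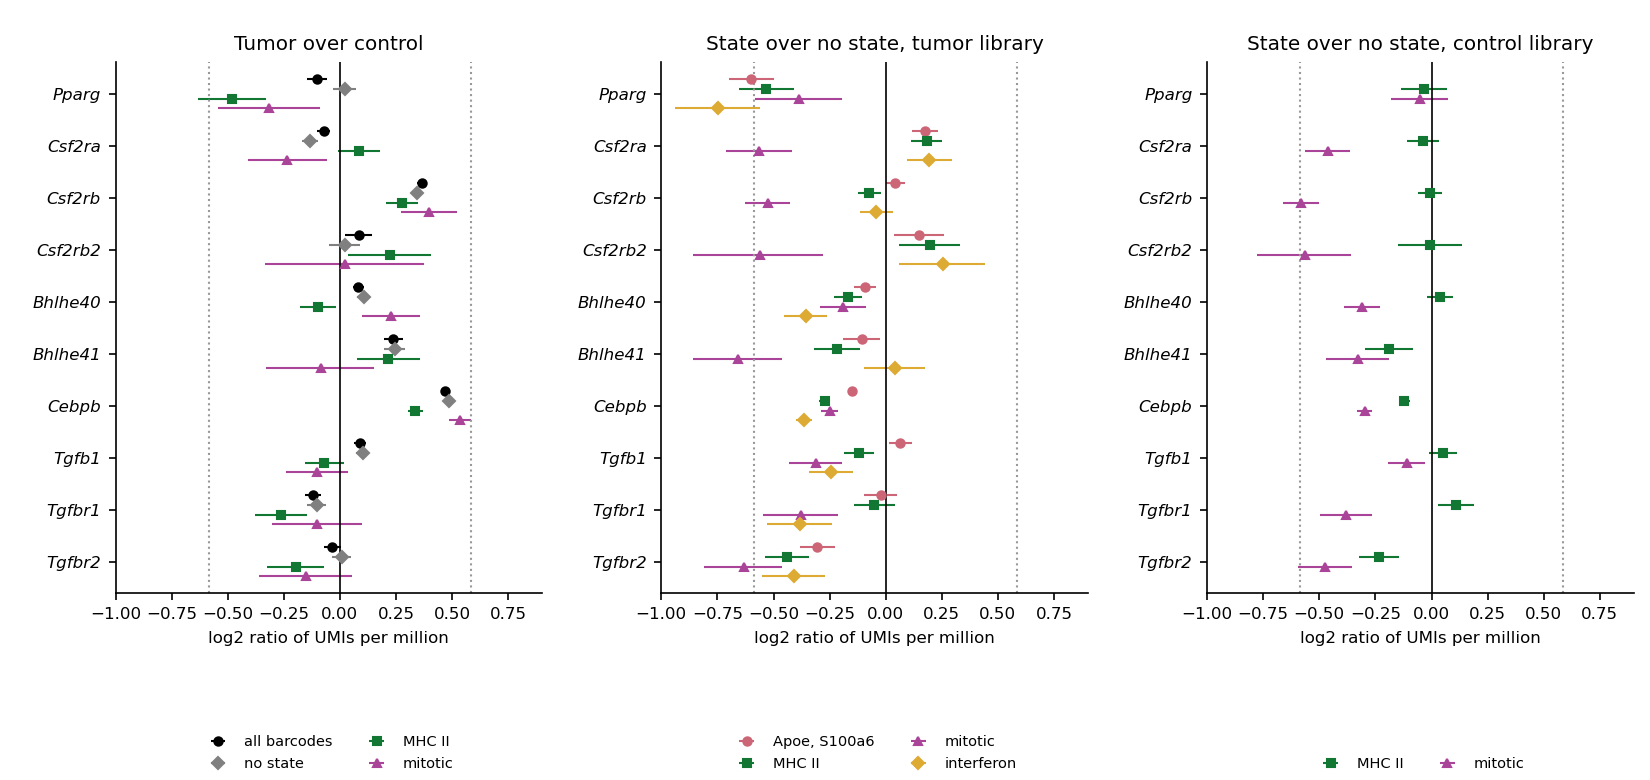
Log2 ratio of CPM (horizontal axis) for each gene (rows) for tumor over control in all barcodes and within groups (left) and for each state over no-state barcodes in the tumor (middle) and control (right) libraries, for groups of at least 50 barcodes. Bars are exact conditional binomial 95% intervals and dotted lines mark 1.5-fold. Pparg lies left of 0 for all 4 tumor states, from -0.39 to -0.75, and at -0.03 and -0.05 for the 2 control states, while all 10 genes lie left of 0 in mitotic barcodes of both libraries.

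Within states, Cebpb and Csf2rb were again higher in tumor. Cebpb was higher in tumor by a log2 ratio of 0.49 in no-state, 0.34 in MHC class II and 0.54 in mitotic barcodes, and Csf2rb by 0.34, 0.28 and 0.40. Bhlhe40 was at -0.10 (-0.18 to -0.02) in MHC class II barcodes, where the median of all genes was -0.12, and at 0.23 (0.10 to 0.36) in mitotic barcodes. Bhlhe41 was at 0.22 (0.07 to 0.36) in MHC class II barcodes and at -0.09 (-0.33 to 0.15), an interval that holds 0, in mitotic barcodes. Among no-state barcodes 0 of 10 genes were past 1.5-fold, beside 18.4% of 13000 genes tested. With the tumor states weighted to the mix of states in control, the whole-library log2 ratios of Cebpb and Csf2rb were 0.48 and 0.34, and that of Pparg was -0.04 in place of -0.10.

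The spread of each gene over barcodes was set beside that of genes of like mean. After thinning to 3800 UMIs (5590 control and 6937 tumor barcodes), the Fano factor, the variance of UMIs divided by their mean, was 1.39 for Bhlhe40 in control and 1.56 in tumor, where the median of genes of like mean was 1.15 and 1.17. Bhlhe41 was at 1.24 and 1.23 against medians of 1.06 and 1.07, and Csf2rb at 1.26 and 1.43 against 1.16 and 1.25. Cebpb had Fano factors of 2.11 and 2.34 against 1.65 and 2.17. The share of like genes with a lower Fano factor was 87.7% and 85.4% for Bhlhe40, 93.99% and 88.2% for Bhlhe41 and 72.4% and 70.2% for Csf2rb. Tgfb1, at 1.05 and 1.09 against 1.13 and 1.17, was above 14.3% and 15.4% of like genes, and Pparg was at 1.08 and 1.14 against 1.06 and 1.06.

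Over the 8 groups of at least 50 barcodes made by library and by a single state, levels of the receptor chains were correlated with one another and with Bhlhe41. Pearson correlations of log2(CPM + 10) were 0.92 between Csf2rb and Csf2rb2, 0.92 between Csf2ra and Csf2rb2 and 0.71 between Csf2ra and Csf2rb. Bhlhe41 was at 0.86 with Csf2rb, 0.83 with Csf2rb2 and 0.76 with Csf2ra, and Cebpb at 0.76 with Csf2rb. Pparg was at -0.49 with Csf2rb, -0.50 with Cebpb and 0.49 with Tgfbr2. These are descriptions over 8 points from 2 libraries, in which groups of a library share its preparation. Of 4114 genes at 50 CPM or more in some group, the 5 whose pattern was closest to Pparg were Hadhb (0.996), a subunit of the mitochondrial enzyme of fatty acid oxidation, Dock10, Ezr, Slc5a3 and Arhgap30. Closest to Csf2rb were Slc15a3 (0.993), P4ha1, Sbno2, Mpeg1 and Atp6v1e1, and closest to Bhlhe40 were Nlrp3 (0.971), Mib1, Tprgl, Ogt and Baz2a. For Tgfbr1 they were Mbtd1 (0.959), Klf9, Rps28, Tmem33 and Tm9sf3.

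Beyond the receptor, genes of GM-CSF signaling were counted by a fixed list. Of 16 listed genes, 12 were testable, of which 5 were at least 1.5-fold higher in tumor (Socs3, Socs1, Il3ra, Cish and Pim1) and none lower, with a median log2 ratio of 0.37. Of all genes tested, 9.7% were at least 1.5-fold higher in tumor and 13.6% lower. Socs3, a feedback inhibitor of cytokine signaling, was at 8.57 CPM in control and 38.9 CPM in tumor (2.18, 2.05 to 2.32). Cish, a STAT5-induced inhibitor, was at 26.3 and 61.8 CPM (1.23, 1.15 to 1.32), and Pim1, a STAT5-induced kinase, at 336 and 737 CPM (1.13, 1.11 to 1.16). The same 5 genes were at least 1.5-fold higher in no-state barcodes, beside 8.36% of all genes. Csf2, which encodes GM-CSF, and Il3 had 0 UMIs in both libraries, which allows up to 0.0463 CPM in control and 0.0436 CPM in tumor (3 UMIs), and Il5 and Il5ra had 1 UMI in control and 0 in tumor. By state in tumor, Socs3 was the 1 gene of 12 at least 1.5-fold higher in Apoe and S100a6 barcodes (69.1 against 30.1 CPM, 1.20, 1.07 to 1.33), beside 5.59% of all genes, and in MHC class II barcodes (65.0 against 30.1 CPM), beside 5.36%. In interferon barcodes Socs3 (79.2 CPM) and Socs1 (10.5 against 3.75 CPM, a level below that of other listed genes given values and named after it was seen) were higher, beside 5.55% of all genes, and Socs2 (34.8 against 53.0 CPM) was lower, beside 13.1%.

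Of 28 listed TGF-β pathway genes, 25 were testable between libraries, with 8 higher in tumor, beside 9.7% of all genes, and 3 lower, beside 13.6%, and a median log2 ratio of 0.31. At 20 CPM or more were Tgif1, a SMAD co-repressor, at 82.2 and 138 CPM (0.75, 0.70 to 0.79), and Pmepa1, a TGF-β-induced inhibitor of SMAD signaling, at 124 and 74.0 CPM (-0.75, -0.80 to -0.70). The other 9 were below that level, and among them Tgfb3, named here after its values were seen, had 14 and 8 UMIs and an interval of -2.35 to 0.46 that holds 0. Among no-state barcodes 7 of 23 were higher, beside 8.36% of all genes, and 0 lower, beside 10%, with Pmepa1 at 122 and 83.6 CPM (-0.55), short of 1.5-fold. Fibroblast markers summed to 0.709 CPM in control and 31.7 CPM in tumor, and their part in the low-level genes was not tested. In tumor, Dcn was at 14.0, Col3a1 at 11.9 and Lum at 5.52 CPM, while Col1a1 and Col1a2 were at 0.145 and 0.116 CPM. In Apoe and S100a6 barcodes of tumor 5 of 19 were higher, beside 5.59% of all genes, and 2 lower, beside 11%, with Smad7, the inhibitory SMAD, at 23.5 against 13.6 CPM (0.79) and Pmepa1 at 40.4 against 83.6 CPM (-1.05, -1.20 to -0.91).

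All 12 listed PPAR target genes were testable, and between libraries 1 was higher, beside 9.7% of all genes, and 2 lower in tumor, beside 13.6%, with a median log2 ratio of -0.17. Olr1, a receptor for oxidized lipoprotein, was at 273 and 432 CPM (0.66, 0.64 to 0.69), Cidec, a lipid droplet protein, at 254 and 151 CPM (-0.75, -0.79 to -0.71) and Pdk4, a kinase that restrains pyruvate oxidation, at 30.2 and 17.2 CPM (-0.82, -0.92 to -0.71). Among no-state barcodes neither Cidec, at 257 and 190.1 CPM, nor Pdk4, at 31.0 and 22.2 CPM, was past 1.5-fold, and of the 12 targets 2 were higher, beside 8.36% of all genes, and 0 lower, beside 10%, with a median of -0.07. In Apoe and S100a6 barcodes of tumor, where Pparg was lower, all 12 targets had ratios below 0 over no-state barcodes, as did 70.0% of all genes tested, with a median of -0.39 against -0.14 for all genes, and 2 were at least 1.5-fold lower, beside 11% of all genes. Pdk4 had 9 UMIs there, 0.853 against 22.2 CPM (-4.70, -5.84 to -3.77), and Cidec was at 22.4 against 190 CPM (-3.09, -3.28 to -2.90). In tumor, the targets at least 1.5-fold lower were 4 of 12 in MHC class II barcodes, beside 6.83% of all genes tested, 6 of 12 in interferon barcodes, beside 13.1%, and 8 of 12 in mitotic barcodes, beside 8.26%. In control they were 1 of 12 in MHC class II barcodes, beside 1.86%, and 4 of 12 in mitotic barcodes, beside 6.16%. Mitotic barcodes of control combined lower targets with a Pparg ratio of -0.05.

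The list of C/EBP family and partner factors had a median log2 ratio of 0.17. Of 11, 3 were higher in tumor, beside 9.7% of all genes, and none was lower, beside 13.6%. These were Cebpe, Egr2 and Klf4. Cebpe had 15 and 26 UMIs and an interval of -0.26 to 1.73 that holds 0. Egr2, a zinc finger factor of AMs, was at 109 and 170 CPM (0.64, 0.60 to 0.68). Klf4, a monocyte and macrophage factor, was at 389 and 587 CPM (0.59, 0.57 to 0.61). Among no-state barcodes 2 were higher, Egr2 and Klf4, beside 8.36% of all genes, and 0 lower, beside 10%. None of the 10 testable was past 1.5-fold in Apoe and S100a6 barcodes, beside 16.6% of all genes.

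Genes of other macrophages and of the CSF1 axis had the highest median of the 5 lists between libraries. Of 9 testable genes, 7 were higher in tumor, beside 9.7% of all genes, with a median log2 ratio of 2.48. C1qb, a complement subunit, was at 0.401 and 20.6 CPM (5.68, 5.12 to 6.30). In Apoe and S100a6 barcodes 6 of 9 were higher over no-state barcodes, beside 5.59% of all genes, led by C1qb (80.4 against 4.07 CPM) and C1qa (40.3 against 2.11 CPM), with C1qc, the third subunit, at 32.2 against 2.05 CPM and Csf1, a macrophage growth factor, at 32.2 against 7.33 CPM. Of these 10 listed genes 5 are also in the monocyte marker list.

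**Figure D4:**
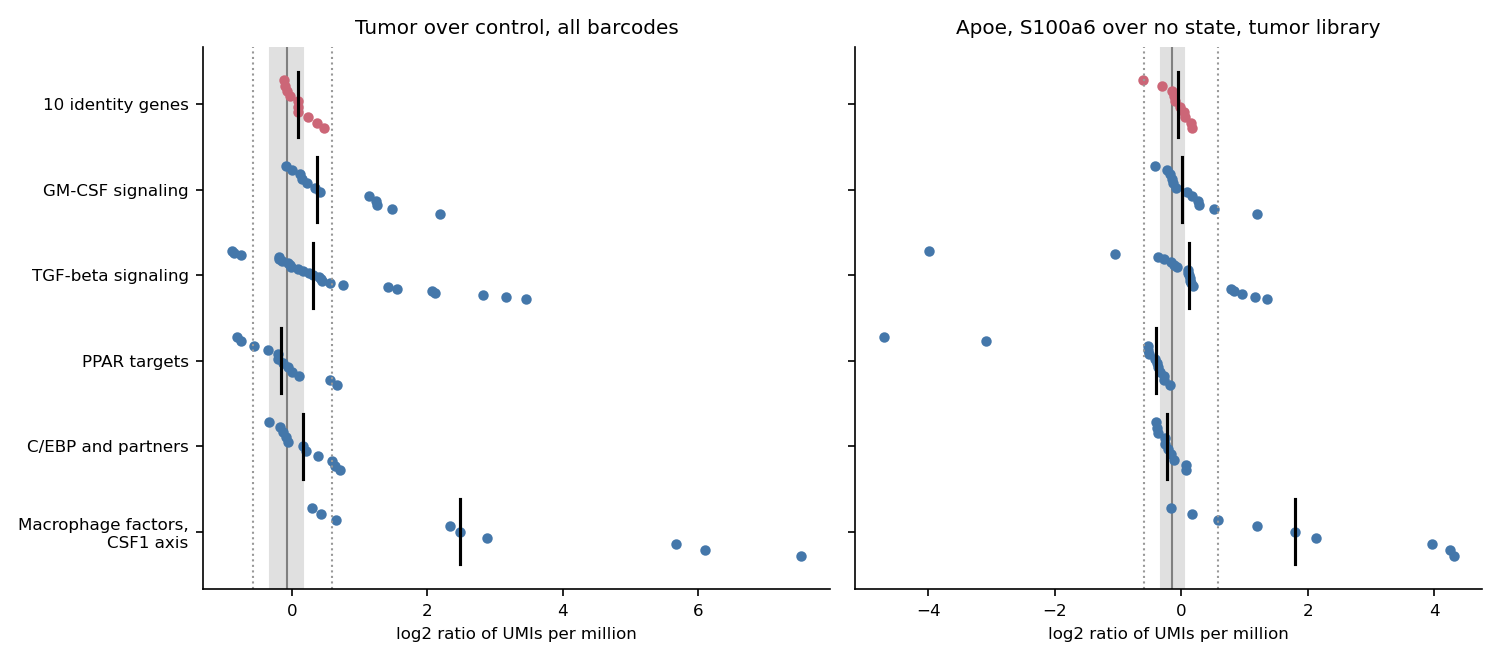
Log2 ratio of CPM (horizontal axes, which differ in range) of each testable gene (points) in the 10 identity genes and 5 related lists (rows), for tumor over control (left) and for Apoe and S100a6 over no-state barcodes of tumor (right). Black bars are list medians, the gray band is the interquartile range of all genes tested with its median as a line, and dotted lines mark 1.5-fold. The 10 genes stay between -0.12 and 0.47 on the left, and on the right Pparg is their lowest at -0.60 while all 12 PPAR targets lie below 0.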

How the data were processed

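Per the labels and the methods of the study, sorted AMs of 1 control and 1 tumor library were run with 10x Chromium 3′ kits. The submitters' processing notes list bcl2fastq 2.20, Cell Ranger 4.0.0 and mm10, while the methods name a later Cell Ranger release. The values the authors deposited are UMI counts per gene and barcode, neither normalized nor filtered for doublets. Of 32285 identifiers, 32158 matched a symbol. The members and lists were chosen with earlier results of these data known.

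Barcodes with at least 500 genes and at most 10% mitochondrial UMIs were kept, and counts were summed by library and state and scaled to UMIs per 1000000 (CPM). States required, per 10000 UMIs, at least 3 each of Apoe and S100a6 with at least 2 UMIs each, a sum of 6 over 3 MHC class II genes with 2 detected, 6 over 10 mitotic genes with 3 detected, or 10 over 11 interferon genes with 3 detected. Levels carry exact Poisson intervals and log2 ratios exact conditional binomial intervals (95%), which cover counting error only, since UMIs of 1 library are not replicates. With 1 library per condition no count model was run, and a gene is called at 1.5-fold. Genes with at least 10 expected UMIs in each group formed the background. Scrublet's automatic threshold marked 0 barcodes, so doublets were kept and the top 6% of scores left out as an alternative. Listed genes are given values if past 1.5-fold and at 20 CPM or more in either group, up to 4 per direction, of which 1 gene is not reported here. Genes of like pattern are the 5 highest Pearson correlations of log2(CPM + 10). Other settings varied the filters, doublets, markers of other cells, scaling, depth and state thresholds, and the scripts were tested on simulated data. Python 3.11.15, numpy 2.4.6, scipy 1.17.1, pandas 2.3.3, scanpy 1.11.5 and matplotlib 3.10.9 were used.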

Additional observations from a re-analysis of the deposited data

Results flagged for a closer look

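The barcodes that the quality filter left out, 2300 in control and 1509 in tumor, enter no comparison above, and there 3 of the 10 genes were at least 1.5-fold higher in tumor and 1 lower, beside 25.5% of 8757 genes tested that were past 1.5-fold in either direction. Csf2rb was at 600 CPM in control and 974 CPM in tumor, 0.70 on the log2 scale (0.61 to 0.79). Cebpb was at 1271 and 2474 CPM, a difference of 0.96 (0.90 to 1.02). Tgfb1 was at 228 and 342 CPM, a difference of 0.59 (0.43 to 0.74). Tgfbr2 was at 128 and 76.4 CPM, lower in tumor by a log2 ratio of -0.75 (-1.03 to -0.47). Each of the 4 ratios had the same sign as among the kept barcodes and was larger in size, that of Tgfbr2 being -0.03 among kept barcodes, and the quality of these barcodes was not examined further.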

How the results depend on the processing

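No paired analysis was possible because each condition had 1 library, and for the same reason no library could be left out in turn. Over 80 gene ratios and 850 values under other settings, 815 kept their sign, 818 kept their side of 1.5-fold, and no called ratio changed sign. Between libraries, and among no-state barcodes, none of these settings brought a count of genes past 1.5-fold away from 0, although within windows of depth Cebpb was past it below 8000 UMIs. In Apoe and S100a6 barcodes of tumor the count of 1 became 0 with markers of other cell types left out, with the mean of each barcode's CPM, with centring on the median, with thinning, with thresholds halved or doubled, and with barcodes of exactly 1 state. In MHC class II barcodes of tumor it went from 0 to 1 with thresholds doubled. For interferon barcodes the count of 1 became 0 with centring, thinning or exactly 1 state, and 2 with thresholds doubled. In mitotic barcodes of control the count of 0 became 1 with the mean of each barcode's CPM or with mitochondrial and ribosomal genes left out of the total, and 2 with centring, thinning or thresholds doubled. In mitotic barcodes of tumor the count of 2 became 4 with markers of other cell types left out, centring or thinning, and 3 with the highest Scrublet scores left out or thresholds doubled. The share of Apoe and S100a6 barcodes in control went from 0.372% to 0.598% with thresholds halved and 0.210% with thresholds doubled. In tumor it went from 12.6% to 17.1% and 6.93%, to 10.9% without markers of other cell types, to 10.6% with thinning and to 10.3% with exactly 1 state. The cause of these moves was not tested.

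The graded bins and their settings were added after the data were seen. Control groups of under 50 barcodes, the Apoe and S100a6 and the interferon barcodes, gave no ratio or count under any setting. At under 1 UMI of Pparg per thinned barcode on average, small groups gave wide intervals for it.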
